A study of Mus musculus with 6 samples.

Results

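The 9 interferon response genes Ifit1, Ifit3, Isg15, Irf7, Stat2, Bst2, Rsad2, Usp18 and Ifih1 were followed in RNA from cardiomyocyte (CM) nuclei of mouse hearts that overexpressed (OE) GFP or a YAP variant. They were chosen by name as a panel of type I interferon response genes, and each had its own row among the 54532 genes counted. Wildtype ICR mice received 1e+11 viral genomes of AAV9 under the skin at 6 d of age, and hearts were taken at 9 d of age, 3 d later. The virus carried GFP, YAP5SA or YAP6SA behind the cTnT promoter, which drives expression in CMs. YAP5SA is YAP with the serines that the LATS kinases phosphorylate changed to alanine, and YAP6SA carries a further serine-to-alanine change that blocks its binding to the TEAD transcription factors. Nuclei were pulled down with an antibody to PCM-1, a protein around the CM nucleus, and their poly-A RNA was sequenced without strand information in 6 libraries. Each of the 3 groups had 2 libraries, 1 in each of 2 batches. All 3 groups received AAV9 and no uninjected heart was analysed here, so any response to the virus itself was not measured. Whether such a response was alike in the 3 groups was not tested. The labels speak of 2 hearts for each virus but do not tie a heart to a library, so the p-values measure the spread between these libraries.

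Interferons are secreted proteins that warn cells of infection. Sensors of foreign or misplaced nucleic acid, such as the RNA sensor MDA5 (the product of Ifih1), signal through adaptors to the factors IRF3 and IRF7, which switch on the interferon genes. Type I interferon binds the receptor IFNAR1/IFNAR2, whose kinases JAK1 and TYK2 phosphorylate STAT2. STAT2 acts with IRF9 in the complex ISGF3, which binds the interferon-stimulated response element (ISRE) in front of interferon-stimulated genes. Among those genes, Ifit1 and Ifit3 encode proteins that recognise viral RNA, Rsad2 encodes the antiviral enzyme viperin, and Bst2 encodes tetherin, which holds budding virus at the cell surface. Isg15 encodes a ubiquitin-like protein that is attached to other proteins, and Usp18 encodes the protease that removes it and that also dampens the receptor. Irf7, Stat2 and Ifih1 are themselves induced by interferon, which makes the pathway feed back on itself.

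The letters of the ISRE core were sought in the promoters to describe the genes. The genes were chosen as type I interferon response genes, which ISGF3 switches on through the ISRE. A high share of promoters with these letters therefore goes with that choice and is not separate evidence. Promoter windows from RefSeq (build GRCm38.p6), each running from 250 bases before to 50 bases after a transcription start, were found for 8 of the 9 genes, the exception being Usp18. The core GAAANNGAA, on either strand and with overlapping matches counted, lay in the window of 7 of these 8 genes (87.5%), and in 8.56% of all 32851 windows. In the windows of genes expressed in these nuclei the share was 6.87%. The upstream stretches that hold it are shown 5′ to 3′ on the strand of the gene, with the matching letters in capitals. Where the match is on the other strand, the capitals show its reverse complement.
Ifit1: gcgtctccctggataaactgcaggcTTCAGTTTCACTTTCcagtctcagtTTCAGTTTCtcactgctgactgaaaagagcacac
Ifit3: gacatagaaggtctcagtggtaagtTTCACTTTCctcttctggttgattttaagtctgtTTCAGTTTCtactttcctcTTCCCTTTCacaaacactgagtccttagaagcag
Rsad2: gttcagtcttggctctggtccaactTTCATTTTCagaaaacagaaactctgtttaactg
Isg15: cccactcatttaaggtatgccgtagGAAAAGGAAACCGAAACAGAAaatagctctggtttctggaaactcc
Bst2: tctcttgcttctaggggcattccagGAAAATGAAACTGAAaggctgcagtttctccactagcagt
Ifih1: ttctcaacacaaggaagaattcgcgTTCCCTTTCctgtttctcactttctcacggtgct
Stat2: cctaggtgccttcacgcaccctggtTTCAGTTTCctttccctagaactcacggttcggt
The stretches lie at chr19:34640755-34640838 (Ifit1, plus strand), chr19:34583349-34583460 (Ifit3, plus strand), chr12:26456538-26456596 (Rsad2, minus strand), chr4:156200851-156200921 (Isg15, minus strand), chr8:71537563-71537627 (Bst2, minus strand), chr2:62646334-62646392 (Ifih1, minus strand) and chr10:128270252-128270310 (Stat2, plus strand). Ifit1, Ifit3 and Isg15 each held 3 matches, Bst2 held 2, and Rsad2 and Stat2 held 1. Ifih1 held 1 upstream match and 1 more after its start. Irf7 held no match in its window. The matches of Isg15 overlapped one another in a single run, ending 58 bases before the start, while the match of Stat2 lay 213 to 221 bases before it. The core TTCNNNGAA of the interferon gamma-activated site (GAS) was in the window of Bst2 alone among the 8 genes, where it overlaps the first ISRE match, and in 8.30% of all windows. A match of letters is a description of the sequence and does not show that a factor binds there.

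**Figure D1:**
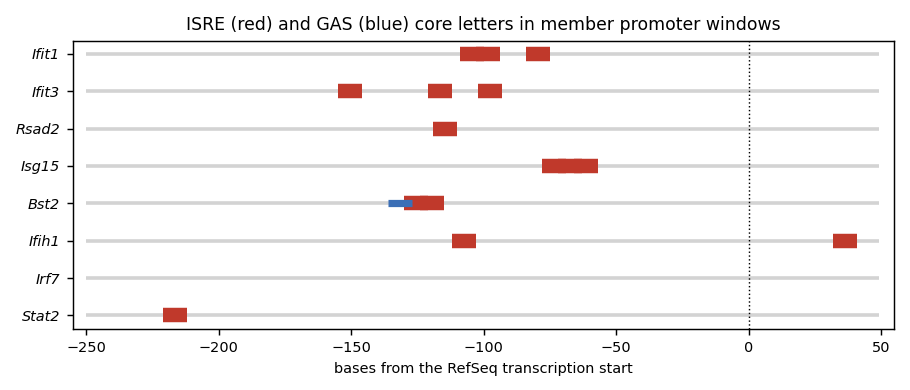
Positions of the ISRE core letters (red) and the GAS core letters (blue) in the promoter windows of the 8 genes with a RefSeq entry, as bases from the transcription start (dotted line). ISRE letters lie upstream in 7 of the 8 genes, and the window of Irf7 holds neither motif.

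The libraries held 14552847 to 19615627 gene counts. Levels are given as CPM, gene counts scaled to 1e+06 of the library's effective size. A gene was tested when the median of its log2 CPM within a group was above 1 in at least 1 group, which left 13323 genes. CM markers were high in every library (6 of 6 above 0, summed CPM 25068 to 57412), and lymphocyte markers were near 0 (3.20 to 6.77 CPM for 9 genes, none passing the filter). Xist, which is transcribed in female cells, had 0 to 8 counts in the 3 batch 1 libraries and 9350 to 10550 in the 3 batch 2 libraries, and Ddx3y of the Y chromosome had 1148 to 2881 counts in all 6. Batch 2 libraries therefore held RNA with both transcripts, and sex composition moved with the batch and not with the groups.

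Most of the 9 genes were weakly expressed in these nuclei. Stat2 was the exception and took 77.8% to 87.8% of all counts of the 9 genes in a library. The other 8 genes summed to 14.2 to 23.4 CPM per library. Per kilobase of exon, the level in GFP CMs was 15.7 CPM for Stat2, 3.37 for Bst2, 1.81 for Irf7, 0.771 for Ifit3, 0.722 for Rsad2, 0.542 for Usp18, 0.286 for Ifih1, 0.208 for Isg15 and 0.179 for Ifit1. Stat2 lay above 75.5% of the expressed genes by this measure, Bst2 above 36.6%, Irf7 above 23.3% and each of the other 6 above at most 10.0%. Stat2, Bst2, Irf7 and Ifit3 did not overlap in their GFP libraries, while from Ifit3 down each gene overlapped the next one in the order. In such bulk samples, fewer nuclei of a type cannot be told apart from less RNA per nucleus. The filter passed 6 of the 9 genes. Irf7, Stat2 and Bst2 passed in all 3 groups, Rsad2 in GFP and YAP5SA CMs, Ifih1 in GFP CMs alone and Ifit3 in YAP5SA CMs alone, while Ifit1, Isg15 and Usp18 did not pass. A gene that passed in some groups and not in others, as Rsad2, Ifih1 and Ifit3 did, tends to differ between them by that choice. Counts and medians over the 6 genes are therefore given as a description.

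None of the 6 tested genes was called in YAP6SA OE CMs against GFP by edgeR's quasi-likelihood test at a false discovery rate (FDR, p adjusted over all genes tested) under 0.05. At an unadjusted p under 0.05 the count was 0 as well, and it was 0 with DESeq2, with limma-voom and with the likelihood ratio test. Of all genes tested, 0.0450% were called in this comparison by the quasi-likelihood test, so few calls were seen anywhere in that fit. The share depended on the fit. It was 0.405% with DESeq2, 0.615% with the likelihood ratio test and 2.07% with edgeR on only the 4 libraries compared. The log2 fold change was negative for 5 of the 6 genes and positive for Bst2, with a median of -0.35 against 0.0018 for all genes. Rsad2 and Ifih1 passed the filter in GFP but not in YAP6SA. The filter itself thus favours lower values in YAP6SA for both, and the median and the count of signs include them.

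In YAP5SA OE CMs against GFP, 0 of the 6 genes were called by edgeR's quasi-likelihood test, while 22.0% of all genes tested were. The count at an unadjusted p under 0.05 was 0, beside 36.4% of all genes. At FDR under 0.05 it was 0 with DESeq2, limma-voom and the likelihood ratio test, which called 21.4%, 23.2% and 27.2% of all genes. The median log2 fold change of the 6 genes was 0.25, with 5 of 6 positive. Both include Ifit3, which passed the filter in YAP5SA alone, so that the filter favours a higher value there. They also include Ifih1, which passed in GFP alone, so that the filter favours a lower value in YAP5SA. Over all genes the median was -0.0031 and the median size of a change was 0.38, regardless of sign, compared with 0.28 for the 6 genes.

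In YAP5SA against YAP6SA OE CMs, 0 of the 6 genes were called by edgeR's quasi-likelihood test and 14.7% of all genes were. Here 3 genes, Ifit3, Rsad2 and Stat2, had an unadjusted p under 0.05, all with higher values in YAP5SA, as did 30.8% of all genes in either direction. DESeq2 and limma-voom called 0, while the likelihood ratio test and the fit with no filter on low counts each called Ifit3 and Rsad2 as higher. The median log2 fold change was 0.435, with 5 of 6 positive, against -0.013 for all genes. Ifit3 passed the filter in YAP5SA alone, and Rsad2 in GFP and YAP5SA but not in YAP6SA. The filter itself thus favours higher values in YAP5SA for both, and the median and the count of signs include them. The 2 comparisons with GFP share the GFP libraries, and both comparisons with YAP5SA share its libraries, so they do not count as separate evidence.

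**Figure D2:**
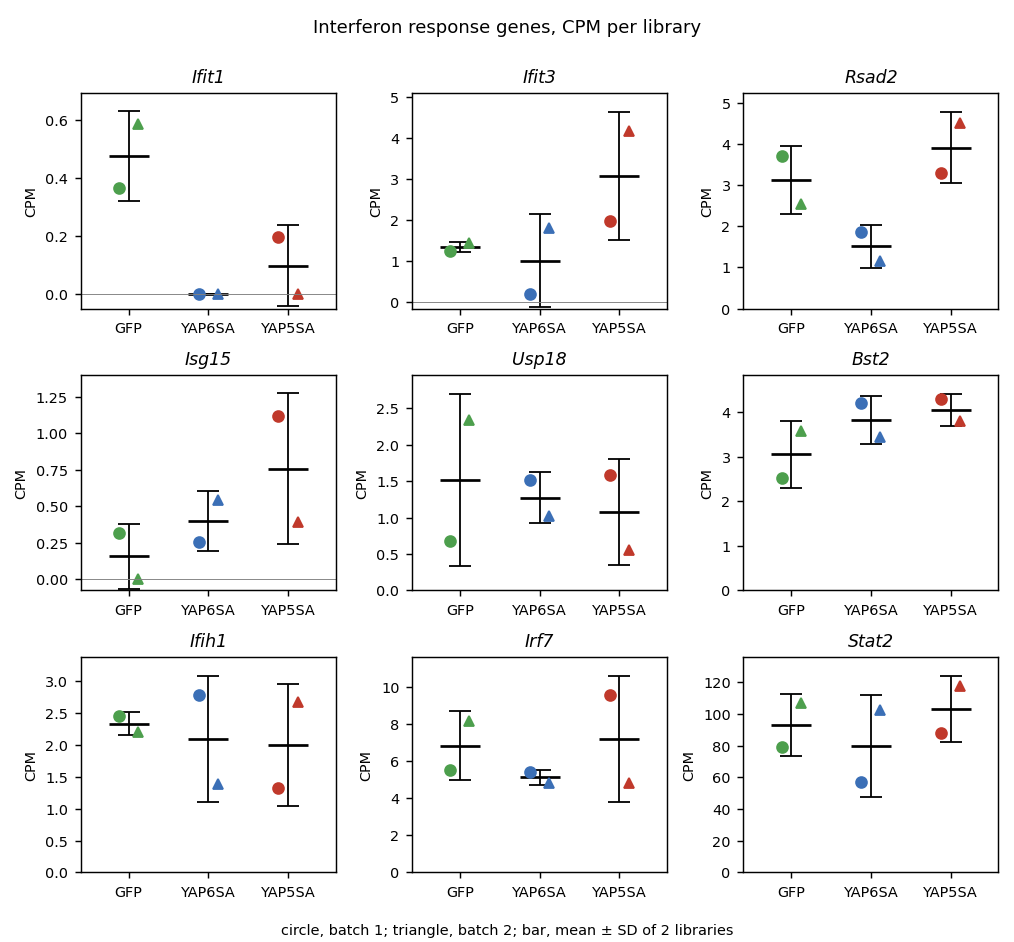
CPM of the 9 genes in each library of the GFP, YAP6SA and YAP5SA groups (circles, batch 1; triangles, batch 2), with the mean and SD of 2 libraries. Ifit1 is at 0 in both YAP6SA libraries, and the axes differ between panels, with Stat2 reaching 118 CPM and Isg15 staying below 1.2.

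Ifit1 (ENSMUSG00000034459, chromosome 19 of GRCm38, 34640871 to 34650009, plus strand) had 7 and 9 counts in GFP, 0 and 0 in YAP6SA, and 3 and 0 in YAP5SA, here and hereafter with batch 1 first. Both GFP libraries thus lay above all 4 others, at counts too low to pass the filter. Each library at 0 was set to the floor of 3 counts, the number that a count of 0 still allows (0.167 CPM on average). The YAP6SA mean was then 2.86-fold lower than the GFP mean of 0.476 CPM. This value is not a lower bound, since the 7 and 9 counts in GFP carry counting error of their own. In a fit without the filter the difference between YAP6SA and GFP had an FDR of 1 by edgeR's quasi-likelihood test. In YAP5SA, with 3 counts in all, no difference from GFP was detectable at this depth (FDR 0.799 in the same edgeR fit).

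Ifit3 (ENSMUSG00000074896, chromosome 19, 34583531 to 34588731, plus strand), a neighbour and paralog of Ifit1, had 1.26 and 1.43 CPM in GFP, 0.203 and 1.81 in YAP6SA, and 1.98 and 4.19 in YAP5SA. Both YAP5SA libraries lay above all others, and the YAP6SA libraries spread from the lowest of the 6 values to one above both GFP libraries. The log2 fold change of YAP5SA against YAP6SA was 1.82 (SE 0.65, 95% interval 0.36 to 3.27) with an FDR of 0.0910 by edgeR's quasi-likelihood test, 2.72 in batch 1 and 1.16 in batch 2. It rested much on 1 YAP6SA library with 4 counts, since without YAP6SA replicate 1 it was 1.03 (FDR 0.437) and without YAP6SA replicate 2 it was 3.47 (FDR 0.0766). Against GFP the YAP5SA value was 1.05 (SE 0.63, interval -0.36 to 2.46, FDR 0.263).

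Reads that map to several places are not in the counts, which matters for the Ifit genes, whose copies are alike in sequence. Ifit3b, a near copy of Ifit3, had 0 to 9 counts per library, so part of the reads of both may be missing. Ifit1bl1, an Ifit1-like paralog, had 39 and 56 counts in GFP, 50 and 112 in YAP6SA, and 101 and 150 in YAP5SA. It rose in YAP5SA against GFP by 1.46 on the log2 scale (SE 0.40, FDR 0.0281 by edgeR's quasi-likelihood test), a call that was lost without GFP replicate 1 (1.48), without GFP replicate 2 (1.45), without YAP5SA replicate 1 (1.06) and with no replicate block (1.41). The values of these copies, like those of Ifit1 and Ifit3, are uncertain to the extent that reads were shared.

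Rsad2 (ENSMUSG00000020641, chromosome 12, 26442746 to 26456452, minus strand) had 3.72 and 2.54 CPM in GFP, 1.88 and 1.15 in YAP6SA, and 3.30 and 4.52 in YAP5SA. The YAP6SA libraries were the 2 lowest of the 6, while GFP and YAP5SA overlapped. The log2 fold change of YAP6SA against GFP was -1.05 (SE 0.48, interval -2.12 to 0.03), -0.95 in batch 1 and -1.07 in batch 2, with an FDR of 0.842 by edgeR's quasi-likelihood test. Viperin message thus had lower values in YAP6SA in both batches without passing the test. For YAP5SA against YAP6SA the log2 fold change was 1.40 (SE 0.49, interval 0.32 to 2.48), with an FDR of 0.0815 in the same edgeR test. It was 1.93 (FDR 0.0148) without YAP5SA replicate 1 and 0.865 (FDR 0.443) without YAP5SA replicate 2.

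Bst2 (ENSMUSG00000046718, chromosome 8, 71534255 to 71537456, minus strand) had 2.51 and 3.58 CPM in GFP, 4.21 and 3.44 in YAP6SA, and 4.29 and 3.80 in YAP5SA. Both YAP5SA libraries were above both GFP libraries, by 0.74 on the log2 scale in batch 1 and 0.08 in batch 2. The fitted difference was 0.41 (SE 0.41, interval -0.51 to 1.34) with an FDR of 0.509 by edgeR's quasi-likelihood test. The 2 variants overlapped, with a log2 fold change of 0.08 between them (interval -0.83 to 0.99).

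Isg15 (ENSMUSG00000035692, chromosome 4, 156199424 to 156200818, minus strand) had 6 and 0 counts in GFP, 5 and 9 in YAP6SA, and 17 and 7 in YAP5SA. Both YAP5SA libraries lay above both GFP libraries, and the level stayed at or below 1.12 CPM in all 6. No difference was detectable at these counts, with FDRs of 0.465 to 1 in the unfiltered edgeR quasi-likelihood fit. Usp18 (ENSMUSG00000030107, chromosome 6, 121245906 to 121270917, plus strand) had 13 and 36 counts in GFP, 30 and 17 in YAP6SA, and 24 and 10 in YAP5SA. Its range in GFP, 0.681 to 2.34 CPM, took in all 4 variant libraries except 1 at 0.558 CPM. The ISG15 ligase cascade of Uba7 (the activating enzyme), Ube2l6 (the conjugating enzyme) and Herc6 (the mouse ligase) passed the filter with 0 of 3 genes called by edgeR's quasi-likelihood test in any comparison, and none at an unadjusted p under 0.05. Uba7 was called lower in YAP5SA against GFP without YAP5SA replicate 1. Herc6 averaged 5.83 ± 0.791 CPM (SD, n = 2 libraries) in GFP, 7.36 ± 0.873 in YAP6SA and 9.32 ± 0.867 in YAP5SA.

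Ifih1 (ENSMUSG00000026896, chromosome 2, 62595798 to 62646255, minus strand) had 2.46 and 2.21 CPM in GFP, 2.79 and 1.39 in YAP6SA, and 1.32 and 2.68 in YAP5SA. The 3 groups overlapped, and each variant had 1 library above and 1 below both GFP libraries. The log2 fold change against GFP was -0.16 (interval -1.39 to 1.07) in YAP6SA and -0.20 (interval -1.45 to 1.04) in YAP5SA. These wide intervals leave a change of either sign possible at this depth.

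Irf7 (ENSMUSG00000025498, chromosome 7, 141262706 to 141266481, minus strand) had 5.50 and 8.14 CPM in GFP, 5.42 and 4.83 in YAP6SA, and 9.57 and 4.80 in YAP5SA. The YAP6SA libraries were both below both GFP libraries, by only 0.02 on the log2 scale in batch 1 and by 0.74 in batch 2. The log2 fold change was -0.43 (SE 0.40, interval -1.33 to 0.47) in YAP6SA against GFP, with an FDR of 0.929 by edgeR's quasi-likelihood test. In YAP5SA against GFP it was 0.03 (interval -0.87 to 0.94), with opposite signs in the 2 batches. Irf7 shares 45 exon bases with Phrf1 on the other strand, a gene with 16729 counts against 648 for Irf7, and without strand information reads from those bases cannot be told apart.

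Stat2 (ENSMUSG00000040033, chromosome 10, 128270559 to 128292849, plus strand) was the one gene of the panel with over 1000 counts in every library. It had 79.3 and 107 CPM in GFP, 56.9 and 102 in YAP6SA, and 88.1 and 118 in YAP5SA. The batch 2 library was the higher one in every group, and the groups overlapped. The log2 fold change was -0.27 (SE 0.16, interval -0.62 to 0.09) in YAP6SA and 0.14 (SE 0.16, interval -0.21 to 0.50) in YAP5SA against GFP. Between YAP5SA and YAP6SA it was 0.41 (SE 0.16, interval 0.05 to 0.77), with an FDR of 0.114 by edgeR's quasi-likelihood test, and 0.37 (FDR 0.434) in the edgeR fit with no replicate block. Its intervals were the narrowest of the 6 genes, and those against GFP ran from -0.62 to 0.50 over both variants.

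**Figure D3:**
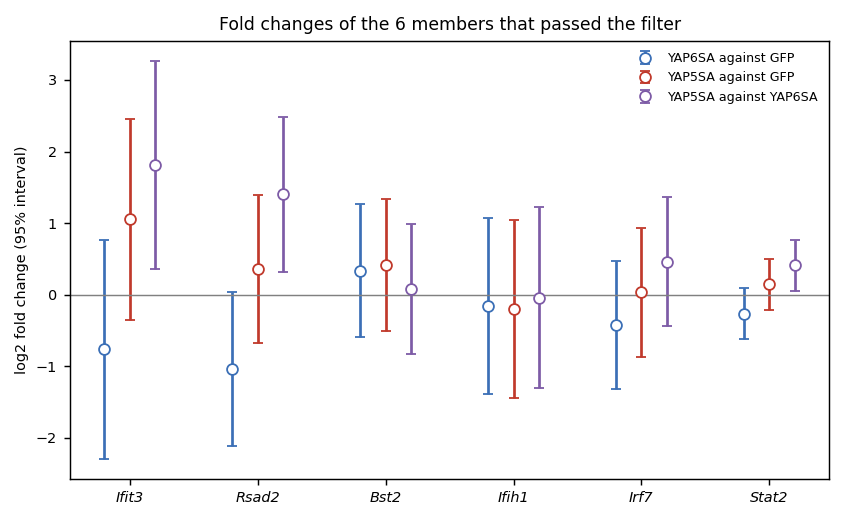
Log2 fold changes with 95% intervals from edgeR's quasi-likelihood fit for the 6 genes that passed the filter, in the 3 comparisons. The intervals of Ifit3, Rsad2 and Stat2 in YAP5SA against YAP6SA lie above 0 (1.82, 1.40 and 0.41), and no value passed the FDR threshold.

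The pairwise correlations of the 6 genes showed no shared movement of all 6 across the 6 libraries. Among their 15 pairs, 8 had a positive Pearson correlation of log2 CPM, with a median of 0.03 and a range from -0.43 (Irf7 with Ifih1) to 0.92 (Ifit3 with Stat2). These values describe 6 libraries that share groups, batches and depths. Counts per library were low, at 4 to 75 for Ifit3, 19 to 81 for Rsad2, 20 to 55 for Ifih1 and 48 to 83 for Bst2. Counting error at such levels pulls correlations toward 0, so a shared movement could be missed. The mean centred log2 CPM of the 6 genes was -0.04 and 0.13 in GFP, -0.48 and -0.25 in YAP6SA, and 0.18 and 0.46 in YAP5SA. That mean includes Ifit3 and Rsad2, which the filter did not pass in YAP6SA. The 5 expressed genes whose pattern was most like this mean, by Pearson correlation over the 6 libraries, were Ncoa3 (0.994), Cspp1 (0.990), Pan3 (0.990), Gm4707 (0.988) and Erbin (0.986). None of these 5 is in the interferon lists used here. Their likeness to the panel was the ground for choosing them, so their group differences are not given as results.

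The rest of the pathway was read from 10 lists with 137 genes, of which 104 passed the filter. In YAP6SA against GFP, 0 of the 104 were called by edgeR's quasi-likelihood test, beside 0.0450% of all genes. An unadjusted p under 0.05 was seen for 9 of them, beside 5.93% of all genes. DESeq2 and the likelihood ratio test each called Ifngr2 as lower, beside 0.405% and 0.615% of all genes, and limma-voom called 0. In YAP5SA against GFP, 14 rose and 11 fell, beside 12.8% of all genes that rose and 9.18% that fell. The share called, 24.0%, was close to the 22.0% of all genes. In YAP5SA against YAP6SA, 5 rose and 4 fell (8.65% in all), beside 1199 of the 13323 genes that rose and 757 that fell (14.7% in all). The pathway genes were thus called in both directions, as genes at large were. Counts for single lists below are descriptions to be read against these shares of all genes.

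The 10 interferon ligand genes listed, Ifnb1 among them, had 0 counts in every library, which allows up to 3 counts (0.152 to 0.198 CPM) each. Reads shared between near-identical Ifna copies would not be counted. The receptors and signal carriers were expressed, and by edgeR's quasi-likelihood test 0 of 11 rose in any comparison. Ifnar1 averaged 136 ± 21.3 CPM (SD, n = 2 libraries) in GFP, 110 ± 18.5 in YAP6SA and 115 ± 15.8 in YAP5SA. For Ifnar2 the means were 45.7 ± 2.84 CPM (GFP), 38.2 ± 0.528 CPM (YAP6SA) and 40.3 ± 9.87 CPM (YAP5SA). The kinase genes Jak1 and Tyk2 averaged 94.1 and 81.1 CPM in GFP, 86.1 and 90.2 in YAP6SA, and 76.7 and 91.2 in YAP5SA. Irf9 averaged 99.4 CPM in GFP, with 79.5 and 68.1 CPM in YAP6SA and YAP5SA. None of these 5 genes was called by edgeR's quasi-likelihood test, while Irf9 was called lower in YAP5SA against GFP by the likelihood ratio test, with no filter and without YAP5SA replicate 1. Outside the type I receptor, 3 receptor chains fell in YAP5SA against GFP, while Ifngr1, the binding chain of the interferon gamma receptor, had 43.3 and 44.8 CPM in GFP and 41.8 and 45.7 in YAP5SA and was not called. Ifngr2, the signalling chain of the interferon gamma receptor, had 126 and 139 CPM in GFP, 60.3 and 78.8 in YAP6SA, and 40.7 and 77.6 in YAP5SA. It fell by 1.22 on the log2 scale in YAP5SA (SE 0.19, FDR 0.00266 by edgeR's quasi-likelihood test) and stayed called under all 15 alternatives. Ifnlr1, of the interferon lambda receptor, fell by 0.93 (FDR 0.00843 in the same edgeR test), not called without GFP replicate 2. Il10rb, its partner chain that also serves interleukin receptors, fell by 0.59 (FDR 0.0334), not called without GFP replicate 1, GFP replicate 2 or YAP5SA replicate 2, or with no replicate block.

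**Figure D4:**
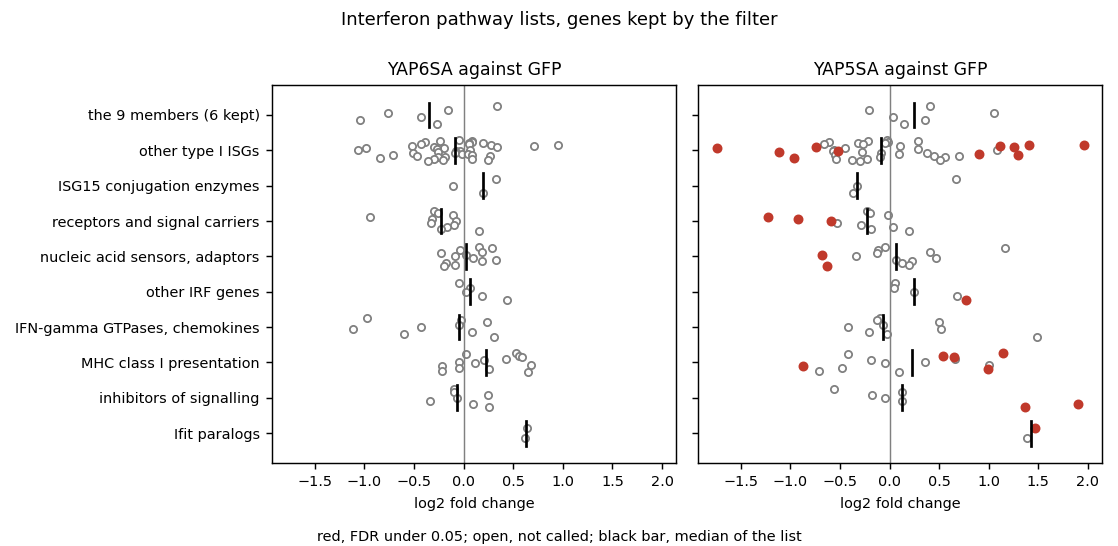
Log2 fold changes against GFP of the pathway genes that passed the filter, by list, in YAP6SA (left) and YAP5SA (right). Red points are called by edgeR's quasi-likelihood test at FDR under 0.05, and black bars are list medians. No point is called in YAP6SA, and in YAP5SA 14 called genes lie above 0 and 11 below it.

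Among the nucleic acid sensors, adaptors and their kinases, 13 of 17 genes passed the filter. By edgeR's quasi-likelihood test 0 rose in any comparison and 2 fell in YAP5SA against GFP, beside 22.0% of all genes called there. The likelihood ratio test and the fit without YAP5SA replicate 1 both called Cgas and Tbk1 as higher in that comparison. Mavs, the adaptor on mitochondria that carries the signal of MDA5 and RIG-I, had 63.2 and 47.2 CPM in GFP, 59.2 and 51.8 in YAP6SA, and 37.9 and 30.6 in YAP5SA. Both YAP5SA libraries lay below all 4 others. Mavs fell by 0.68 on the log2 scale against GFP (SE 0.16, FDR 0.0144 by edgeR's quasi-likelihood test) and by 0.70 against YAP6SA (FDR 0.0170). The first call was lost without GFP replicate 1 (-0.58) or GFP replicate 2 (-0.76), and the second without YAP6SA replicate 1 or YAP6SA replicate 2 and with no replicate block. Trim25, a ubiquitin ligase that activates RIG-I, fell by 0.63 against GFP (FDR 0.0242), not called without GFP replicate 1, GFP replicate 2 or YAP5SA replicate 2, or with no replicate block. The sensor genes Ddx58 (RIG-I) and Cgas averaged 14.1 ± 0.633 and 2.05 ± 0.138 CPM in GFP, 13.7 ± 0.950 and 2.54 ± 1.21 in YAP6SA, and 13.0 ± 2.18 and 4.54 ± 0.448 in YAP5SA (SD, n = 2 libraries). Tmem173 (STING), the adaptor of Cgas, averaged 6.78 CPM in GFP and 5.97 and 7.38 CPM in YAP6SA and YAP5SA, and Irf3 227, 230 and 272 CPM. None of these 4 was called by edgeR's quasi-likelihood test, while Irf3, like Cgas, was called higher in YAP5SA against GFP without YAP5SA replicate 1. Of the other IRF genes, 1 of 5 was called, Irf8, a factor of the myeloid lineage, which rose by 0.78 in YAP5SA against GFP (FDR 0.0378). That call was lost without GFP replicate 1, GFP replicate 2, YAP6SA replicate 1 or YAP5SA replicate 2, and with no replicate block or only the 4 libraries compared.

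The list of other type I interferon-stimulated genes had 40 of 48 genes past the filter, of which 6 rose and 5 fell in YAP5SA against GFP, with a median log2 fold change of -0.09. Of all genes, 22.0% were called in that comparison. Ifit2, a neighbour and paralog of the Ifit genes above, had 8.07 and 8.59 CPM in GFP, 8.31 and 12.4 in YAP6SA, and 25.6 and 41.3 in YAP5SA. Both YAP5SA libraries were above all others in either batch. It rose by 1.96 on the log2 scale against GFP (SE 0.24, FDR 8.3e-04 by edgeR's quasi-likelihood test) and by 1.68 against YAP6SA (SE 0.24, FDR 0.00213), and was called under all 15 alternatives in both comparisons. Its promoter windows held no ISRE core letters and 1 GAS core match. Samhd1, which breaks down the nucleotides that viruses need, rose by 1.30 against GFP (FDR 0.00224) and by 1.21 against YAP6SA. Rnf213, a large ubiquitin ligase with antimicrobial roles, rose by 0.90 against GFP (FDR 0.00286) and by 0.92 against YAP6SA. Both were called against GFP under all 15 alternatives, and against YAP6SA under all except without YAP6SA replicate 2. Parp9, a partner of the ligase DTX3L, went the other way and fell by 1.12 against GFP (FDR 0.00803) and by 1.04 against YAP6SA (FDR 0.0145), not called without GFP replicate 2 in the first and without YAP6SA replicate 2 in the second. Mx2, an antiviral GTPase named here after its values were seen, had 11.9 and 16.3 CPM in GFP, 5.83 and 8.46 in YAP6SA, and 6.07 and 2.46 in YAP5SA. It fell by 1.74 in YAP5SA against GFP (SE 0.44, FDR 0.0198 in the same edgeR test), not called without GFP replicate 2 (-1.38) or YAP5SA replicate 2 (-0.94).

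**Figure D5:**
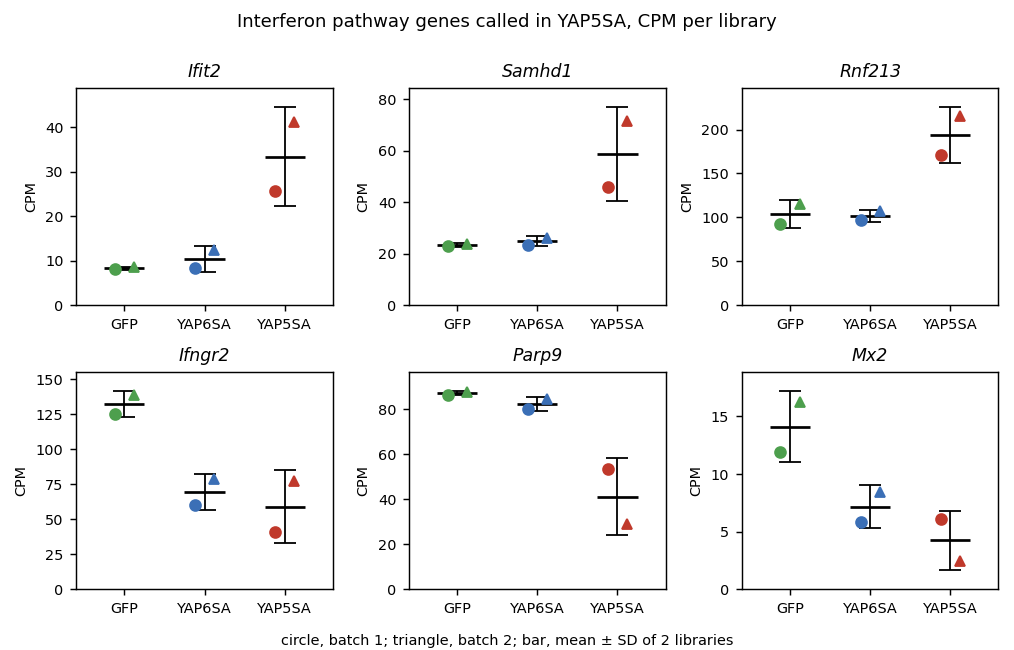
CPM per library of 6 interferon pathway genes called in YAP5SA against GFP (circles, batch 1; triangles, batch 2; bars, mean and SD of 2 libraries). Ifit2, Samhd1 and Rnf213 are highest in both YAP5SA libraries, Parp9 is lowest there, and Ifngr2 and Mx2 lie lower than GFP in all 4 variant libraries.

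Genes of MHC class I presentation, which interferon also induces, had 4 calls up and 1 down among 14 tested in YAP5SA against GFP. The share over all genes was 22.0%. B2m, the light chain of MHC class I, had 13.9 and 9.96 CPM in GFP, 18.9 and 15.6 in YAP6SA, and 21.7 and 30.7 in YAP5SA. It rose by 1.14 on the log2 scale in YAP5SA against GFP (SE 0.27, FDR 0.0153 by edgeR's quasi-likelihood test), not called without GFP replicate 2 (0.85) or YAP5SA replicate 2 (0.70). Tap1, the peptide transporter, rose by 1.00 (FDR 0.0214), not called without GFP replicate 2, and the heavy chain gene H2-D1 by 0.54 (FDR 0.0353), not called without GFP replicate 1, GFP replicate 2 or YAP5SA replicate 2, or with no replicate block. In YAP6SA against GFP the log2 fold change of H2-D1 was 0.56 (FDR 0.515), as large as in YAP5SA without passing this test. With only the 4 libraries compared, H2-D1 was called higher in YAP6SA against GFP, beside 2.07% of all genes called. Between the variants the log2 fold change of H2-D1 was -0.02 (interval -0.37 to 0.33). Psme1, a proteasome activator subunit, fell by 0.87 (FDR 0.00803), not called without GFP replicate 2. Against YAP6SA it fell by 0.65 (FDR 0.0353), not called without YAP6SA replicate 2 or YAP5SA replicate 2, with no replicate block or with only the 4 libraries compared. Among genes of the interferon gamma list, edgeR's quasi-likelihood test called 1 in any comparison, and the likelihood ratio test also called Nlrc5 as higher in YAP5SA against either group. This was Iigp1, a GTPase against vacuolar pathogens, with 5.55 and 7.62 CPM in GFP, 2.03 and 4.29 in YAP6SA, and 7.99 and 10.9 in YAP5SA. It rose in YAP5SA against YAP6SA by 1.63 (FDR 0.0131), not called without YAP6SA replicate 1 or YAP6SA replicate 2.

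Inhibitors of signalling had 2 calls among 7 genes in YAP5SA against GFP, both up, beside 22.0% of all genes called. Socs3, which blocks JAK kinases, had 6.34 and 5.60 CPM in GFP, 8.82 and 3.87 in YAP6SA, and 13.7 and 30.9 in YAP5SA. It rose by 1.90 on the log2 scale against GFP (SE 0.46, FDR 0.0172 by edgeR's quasi-likelihood test) and by 1.81 against YAP6SA (FDR 0.0299). YAP5SA replicate 2 carried much of this, since without it the values were 0.87 and 0.86 and neither was called. The first call was also lost without GFP replicate 2 and the second without YAP6SA replicate 2 (0.99). Tnfaip3, which restrains NF-kappaB, rose by 1.37 against GFP (FDR 0.0225), not called without GFP replicate 2 (0.77) or YAP5SA replicate 2 (0.93).

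RNA of other cell types was present in the nuclei preparation. The 8 fibroblast markers summed to 857 to 1771 CPM per library and the 8 endothelial markers to 431 to 681. In both of these lists, 0 genes were called in YAP5SA against GFP by edgeR's quasi-likelihood test. The 6 mural cell markers summed to 335 to 586 CPM, and 1 of them, Abcc9, was called in the same test. Abcc9 fell in YAP5SA against GFP (-0.81, FDR 0.0287) and against YAP6SA (-0.87, FDR 0.0287). Macrophages express many interferon pathway genes. The 10 macrophage markers, all above 0 in every library, summed to 67.8 and 92.8 CPM in GFP, 81.6 and 111 in YAP6SA, and 94.2 and 148 in YAP5SA. The YAP5SA library was the highest of its batch in both batches. Of the 9 that passed the filter, Lyz2 (1.43, FDR 0.00611) and C1qa (0.96, FDR 0.0228) rose in YAP5SA against GFP by edgeR's quasi-likelihood test, and 0 fell. These 2 of 9 stand beside 22.0% of all genes called in that comparison, a like share. Lyz2 was not called without GFP replicate 2, nor C1qa without GFP replicate 1, GFP replicate 2 or YAP5SA replicate 2, or with no replicate block. CM markers summed to 42398 and 57412 CPM in GFP, 39572 and 51753 in YAP6SA, and 35082 and 25068 in YAP5SA, the lowest of each batch. Tnnt2 and Myh6 made up most of that sum, with 14993 and 17843 CPM in GFP batch 1. Of the 6 markers, 1 was called in YAP5SA against GFP by edgeR's quasi-likelihood test, beside 22.0% of all genes. This was Ryr2, which fell (-0.81, FDR 0.0455) and was also called lower against YAP6SA (-0.84, FDR 0.0496). Myh6 (-1.04, FDR 0.0625) and Ttn (-0.76, FDR 0.0516) were not called against GFP in the same test. Pcm1 alone of the 6 had a positive log2 fold change in YAP5SA against GFP (0.24, FDR 0.313 in the same test). It had 54.2 and 65.4 CPM in GFP and 74.4 and 66.6 in YAP5SA. Actn2 had opposite signs in the 2 batches. The part of these markers in the calls of Ifit2, Irf8, B2m and the other genes that rose was not tested.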

How the data were processed

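Per the labels, reads were mapped with STAR to the mouse genome (mm10, GRCm38). The authors deposited raw read counts per gene for the 6 libraries, with no normalization. Reads outside genes, ambiguous between genes or mapping to several places are not in the gene counts. Genes were named and placed with GENCODE M21 (GRCm38). The model was edgeR 4.0.16's quasi-likelihood F test (R 4.3.3), two-sided, on TMM-scaled counts of all 6 libraries with group and batch terms, over the 13323 genes whose median log2 CPM was above 1 in at least 1 group, with Benjamini-Hochberg adjustment. SEs were taken as the log2 fold change over the root of F. Batch differences used log2 CPM with a prior count of 2. The floor of 3 counts covers counting error alone. The authors' notes name edgeR with a batch covariate, without naming its test.

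The batch term pairs the libraries. In the labels, replicate and batch numbers are the same. Deviations of same-batch libraries from the means of their groups correlated across genes, at 0.368 (GFP and YAP6SA), 0.0985 (GFP and YAP5SA) and 0.175 (YAP6SA and YAP5SA). Alternatives were RLE and upper quartile scaling, no filter, at least 10 counts in every library, the likelihood ratio test, DESeq2 1.42.0, limma-voom (limma 3.58.1), no replicate block, only the 4 libraries compared, and each library left out in turn. The pipeline was tested on simulated data.

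The genes, lists and tests were chosen with earlier results of these data known. Genes named are the 9 panel genes, a set of pathway genes named always, up to 4 called genes of smallest FDR from each list, and the 5 genes nearest in pattern. One gene of the always-named set is not reported here.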

Additional observations from a re-analysis of the deposited data

How the results depend on the processing

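The count of panel genes called was 0 in both comparisons with GFP under all 15 alternatives. In YAP5SA against YAP6SA it was 2 with no filter and 2 with the likelihood ratio test (Ifit3 and Rsad2, both higher), and 0 to 1 with 1 library left out. Among the pathway lists in YAP6SA against GFP, 1 gene was called with no filter, beside 0.529% of all genes. The likelihood ratio test (0.615% of all genes) and DESeq2 (0.405%) also called 1 each, and the gene was Ifngr2, lower, in each. With only the 4 libraries compared 6 were called, beside 2.07% of all genes. These were H2-D1, H2-K1 and Tapbp as higher and Ifngr2, Mx2 and Tor3a as lower. In YAP5SA against GFP the count of 25 became 16 with no replicate block (15.7% of all genes called) and 4 to 39 with 1 library left out. The 4 came without GFP replicate 2 (Ifit2, Rnf213 and Samhd1 higher, Ifngr2 lower; 5.54% of all genes), 13 without YAP5SA replicate 2 (13.1%), 15 without GFP replicate 1 (14.4%), and the 39 without YAP5SA replicate 1 (36.5%). In YAP5SA against YAP6SA the count of 9 became 16 with the likelihood ratio test (20.7%), 6 with no replicate block (8.65%), and 1 to 28 with 1 library left out, the 1 (Ifit2) without YAP6SA replicate 2 (2.97%), 6 without YAP6SA replicate 1 (9.22%) and the 28 without YAP5SA replicate 1 (31.2%). In these fits the lone library of a group is assumed to vary like the others. The causes were not tested. Signs of single genes turned only with 1 library left out. In YAP6SA against GFP, the log2 fold changes then ran from -2.36 to 0.0877 for Ifit3, -0.956 to 0.195 for Irf7, -0.0288 to 0.714 for Bst2 and -0.976 to 0.436 for Ifih1. In YAP5SA against GFP they ran from -0.58 to 0.624 for Irf7 (also -0.527 without GFP replicate 1), -0.191 to 0.879 for Rsad2 and -1.08 to 0.496 for Ifih1. In YAP5SA against YAP6SA they ran from -0.197 to 1.01 for Irf7, -0.133 to 0.315 for Bst2 (-0.0554 without YAP5SA replicate 1) and -0.878 to 0.703 for Ifih1 (0.689 without YAP6SA replicate 1). Without the replicate block, the calls of Il10rb, Trim25, Irf8, H2-D1 and Ifit1bl1 against GFP and of Mavs and Psme1 against YAP6SA were lost, and no other call given in the report for a panel or named pathway gene was. Depth limits Ifit1, Isg15 and Usp18 most, with 0 to 36 counts per library.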
